A study of Mus musculus with 4 samples.

Results

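The 9 features described here are nuclear stretches of the mouse genome whose sequence resembles genes of mitochondrial DNA (mtDNA). They were picked by gene symbol from the 37819 features of a deposited gene table, with their counts, levels and ratios in these libraries already known, so these values are a description and have no test. The table comes from a study of non-coding RNA in liver mitochondria of metabolic disease model mice. Total RNA labelled as from liver mitochondria was depleted of ribosomal RNA and sequenced in 4 libraries, each the only one of its group. Every mouse was at postnatal week 7. One library came from wild-type C57BL/6J mice, and the others from ob mice (B6.Cg-Lepob/J, with the ob mutation of the leptin gene), NASH mice (wild-type C57BL/6J mice labelled as having NASH, non-alcoholic steatohepatitis) and db mice. The db genotype label names the db mutation of the leptin receptor gene (Leprdb) and a BKS background, while its strain label reads C57BL/6J. The sources used here do not give how NASH was brought about or how many mice went into a library. No difference below has a replicate check, and every range in parentheses is a 95% interval of counting error only, which compares libraries and not conditions. Where 4 values follow each other without names, their order is wild-type, ob, NASH, db.

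Mitochondrial DNA encodes 37 genes, among them core subunits of the respiratory enzymes and the RNAs of the mitochondrial ribosome. It is transcribed into long precursors that are cut into messenger, ribosomal and transfer RNAs, in many places at the transfer RNAs that lie between the genes. Pieces of mtDNA have been copied into nuclear chromosomes during evolution (nuclear mtDNA segments), and most of these copies are regarded as pseudogenes. A short read from an mtDNA transcript can match such a copy where both sequences are alike, and the mitochondrial code reads TGA as tryptophan, whereas the nuclear code reads it as a stop.

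The rows analysed lay on 21 chromosomes, with 0 on the mitochondrial chromosome and 0 of the 37 mtDNA genes by name. A count printed below is therefore a count assigned to a nuclear feature, and it cannot be told apart here from reads of the mtDNA gene that the feature resembles. Of the 37819 features, 36049 (95.3%) had a transcript in the GENCODE M21 annotation (assembly GRCm38, which is mm10). Among them 10 resembled mtDNA over at least 50% of their length at 80% identity or more, and these were the 9 features and Gm12155, a copy of part of mt-Co2 with 1, 1, 0 and 0 counts. The 9 features cover 7 of the 15 mtDNA genes for messenger and ribosomal RNA, and 8 have no counterpart among them. The chromosome 1 copies Gm10925, Gm28437, Gm28438, Gm28439, Gm28661 and Gm29216, looked for by name and identifier, were not among the rows analysed.

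Alignment placed each feature in the same orientation as its mtDNA gene, 9 of 9. Gm13340 (ENSMUSG00000083563, chr2:22588103-22589647, minus strand) was 97.6% identical over all 1545 bases to mt-Co1, which encodes the catalytic subunit of cytochrome c oxidase. Gm13341 (ENSMUSG00000083863, chr2:22587291-22587962, minus strand) was 95.9% identical to mt-Co2, which encodes the subunit of the same enzyme that takes electrons from cytochrome c, and lacked 12 of its bases. Gm13339 (ENSMUSG00000082884, chr2:22590024-22590533, minus strand) was 96.7% identical over 510 bases to the 3′ part of mt-Nd2, which encodes a membrane subunit of complex I. Gm20594 (ENSMUSG00000096887, chr6:79818031-79818364, plus strand), labelled protein-coding in the table, was 90.3% identical over 321 aligned columns to an inner stretch of mt-Rnr2, the gene of the large mitochondrial ribosomal RNA. These 4 features held more than 99% of the counts of the set in every library, as given below.

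The other 5 features matched the remaining genes. AC154271.1 (ENSMUSG00000096449, chr13:85126999-85127514, minus strand; now Gm4076, a processed pseudogene) and Gm11407 (ENSMUSG00000082179, chr4:80002331-80003388, plus strand) were 95.3% and 92.4% identical to mt-Nd5, which encodes a proton-pumping subunit of complex I. Gm11512 (ENSMUSG00000081043, chr11:90538484-90539146, minus strand) was 90.7% identical to the 3′ part of mt-Co1. Gm11410 (ENSMUSG00000083219, chr4:80003989-80005131, plus strand) was 92.9% identical to mt-Cytb, the cytochrome b gene of complex III. Gm11408 (ENSMUSG00000083076, chr4:80003396-80003914, minus strand) was 93.6% identical to mt-Nd6, a complex I gene and the only protein-coding gene on the light-strand transcript of mtDNA.

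Sequences are shown for the 4 features that carry nearly all counts, with the matching stretch of the mtDNA gene. Each is written 5′ to 3′ on the strand of the feature, from GENCODE M21 transcripts, with coordinates on mm10. The longest stretch without any difference between Gm13340 and mt-Co1 was 148 bases, and the same letters stand at both places:
Gm13340 chr2:22589187-22589334 (minus strand): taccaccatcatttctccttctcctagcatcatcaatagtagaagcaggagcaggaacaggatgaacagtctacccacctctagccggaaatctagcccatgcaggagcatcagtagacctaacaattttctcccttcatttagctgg
mt-Co1 chrM:5641-5788 (plus strand): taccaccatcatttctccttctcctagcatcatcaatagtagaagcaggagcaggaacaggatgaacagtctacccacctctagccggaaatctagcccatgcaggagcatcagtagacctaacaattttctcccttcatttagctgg
The longest such stretch was 173 bases in Gm13341, 129 in Gm13339 and 65 in Gm20594, which is shown next with its place in mt-Rnr2:
Gm20594 chr6:79818283-79818347 (plus strand): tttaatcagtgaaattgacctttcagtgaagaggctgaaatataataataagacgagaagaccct
mt-Rnr2 chrM:2102-2166 (plus strand): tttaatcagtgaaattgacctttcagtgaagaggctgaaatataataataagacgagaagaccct

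The next pairs show, for each of these features, the 100 gap-free aligned bases with the most differences, with every differing base in capitals. Even there Gm13340 differed from mt-Co1 at 5 of 100 bases:
Gm13340 chr2:22589114-22589213 (minus strand): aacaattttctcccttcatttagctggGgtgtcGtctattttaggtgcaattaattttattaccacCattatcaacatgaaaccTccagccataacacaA
mt-Co1 chrM:5762-5861 (plus strand): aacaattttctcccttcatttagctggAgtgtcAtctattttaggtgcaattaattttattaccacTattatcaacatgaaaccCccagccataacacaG
Gm20594 differed from mt-Rnr2 at 11 of 100 bases:
Gm20594 chr6:79818092-79818191 (plus strand): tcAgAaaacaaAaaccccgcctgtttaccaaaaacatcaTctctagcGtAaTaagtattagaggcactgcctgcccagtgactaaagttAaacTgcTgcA
mt-Rnr2 chrM:1911-2010 (plus strand): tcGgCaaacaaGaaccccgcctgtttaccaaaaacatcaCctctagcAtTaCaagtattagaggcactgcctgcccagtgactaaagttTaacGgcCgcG
Gm13341 differed from mt-Co2 at 7 of 100 bases:
Gm13341 chr2:22587431-22587530 (minus strand): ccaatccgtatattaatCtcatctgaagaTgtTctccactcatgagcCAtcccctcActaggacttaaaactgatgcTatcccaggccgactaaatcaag
mt-Co2 chrM:7457-7556 (plus strand): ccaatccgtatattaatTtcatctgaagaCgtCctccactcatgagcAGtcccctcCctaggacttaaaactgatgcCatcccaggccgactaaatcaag
Gm13339 differed from mt-Nd2 at 6 of 100 bases:
Gm13339 chr2:22590204-22590303 (minus strand): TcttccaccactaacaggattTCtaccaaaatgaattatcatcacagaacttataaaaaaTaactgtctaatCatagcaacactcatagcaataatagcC
mt-Nd2 chrM:4672-4771 (plus strand): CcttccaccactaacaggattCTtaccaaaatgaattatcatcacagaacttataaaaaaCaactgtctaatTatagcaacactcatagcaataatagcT
These pairs leave out stretches with gaps, and Gm20594 had 7 gap columns in its alignment. In windows of 50 aligned columns that hold gaps, identity fell to 74% in Gm20594 and in Gm13341. In Gm13340, 33 of 37 substitutions were transitions (exchanges of A with G or of C with T), and in Gm20594 14 of 24 were.

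**Figure D1:**
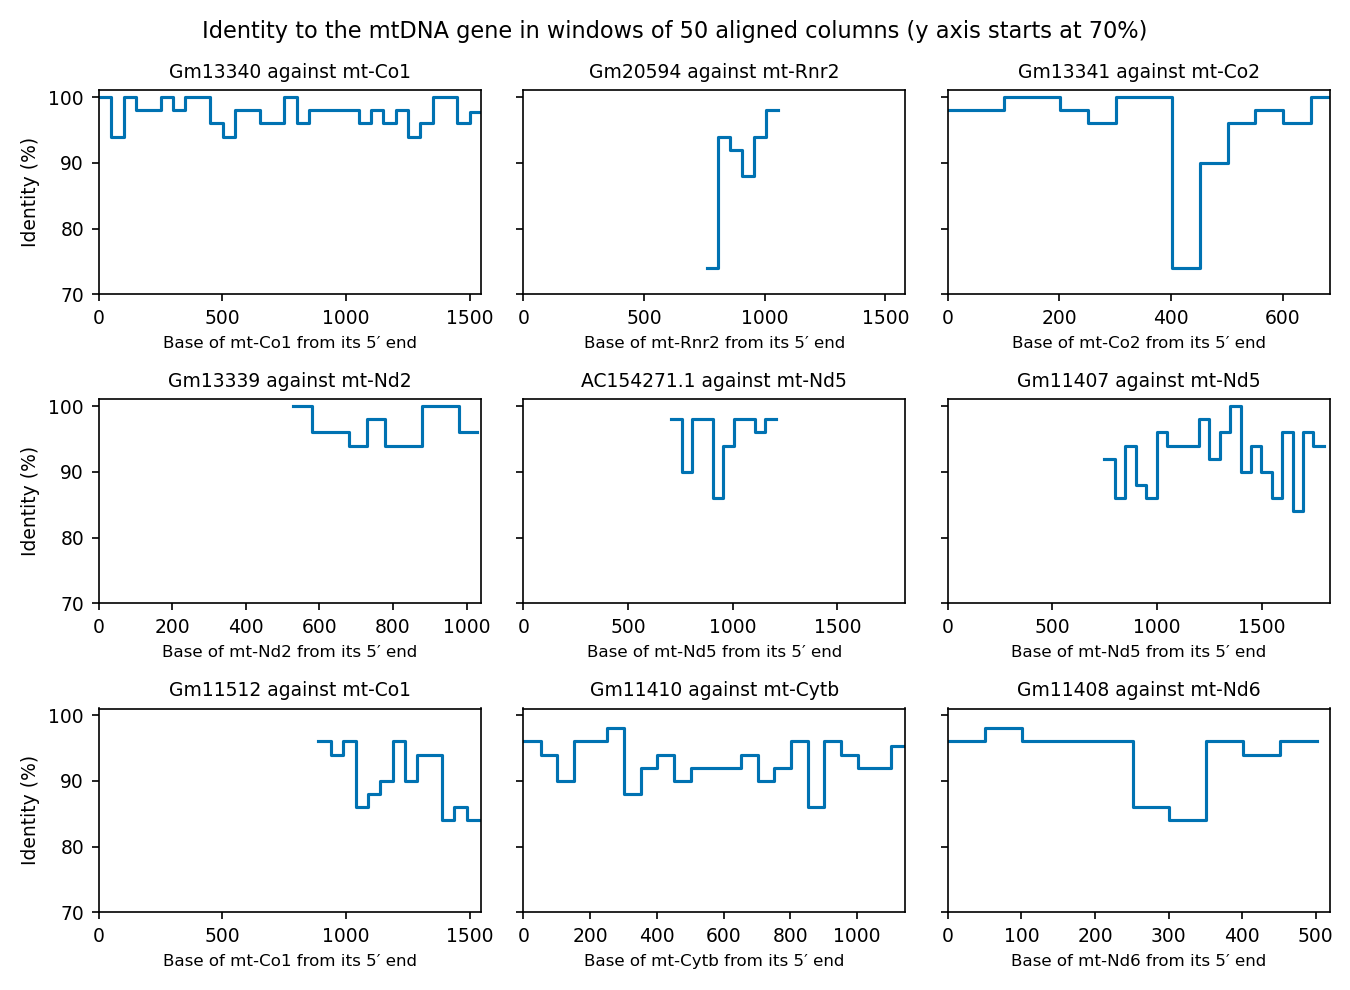
Identity of each feature to its mtDNA gene (y axis, percent identical columns in windows of 50 aligned columns, starting at 70%) along the gene (x axis, bases from its 5′ end). Gm13340 stays high along all of mt-Co1, Gm13341 has a dip at its 12 missing bases, and Gm11512 covers only the 3′ part of mt-Co1 with lower identity.

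Identity in short windows differed more between the features than overall identity did. Of all 50-base windows of a feature, 36.0% in Gm13341 (224 of 623), 27.5% in Gm13340 (411 of 1496) and 17.6% in Gm13339 (81 of 461) occurred letter for letter in an mtDNA gene. The share was 11.8% in AC154271.1, 6.34% in Gm11407, 5.61% in Gm20594 (16 of 285) and 0.814% in Gm11512 (5 of 614). Gm11410 and Gm11408 had 0 of 1094 and 0 of 470. With 100-base windows the share was 15.4% in Gm13341, 7.30% in Gm13339, 5.53% in Gm13340 and 0 in the other 6. The sources used here do not give the read length. As a description of 9 features, the 3 with the largest shares of identical 50-base windows were among the 4 with the most counts per kilobase, and the 2 with none were the 2 with the fewest. Gm20594 went against this order, with the most counts per kilobase and few identical windows.

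Of the 7 copies that could be read in the frame of their mtDNA gene, 5 had no stop in the mitochondrial code. Gm13340 read in the frame of mt-Co1 over 514 codons had 18 stops in the nuclear code, all of them TGA, and 0 stops in the mitochondrial code, and mt-Co1 itself had 17 TGA codons. Gm13341, Gm13339, AC154271.1 and Gm11512 also had 0 stops in the mitochondrial code, against 5, 3, 1 and 8 in the nuclear code. Gm11410 and Gm11408 each had 1 stop in the mitochondrial code in a frame where mt-Cytb and mt-Nd6 had 0. Gm11407 was not read, since its gap of 2 columns breaks the frame, and Gm20594 copies a gene without a frame.

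The features on chromosomes 2 and 4 kept the layout of mtDNA. On chromosome 2, Gm13339, Gm13340 and Gm13341 followed each other on 1 strand in the order mt-Nd2, mt-Co1, mt-Co2. The gaps between them were 376 and 140 bases, and the gaps between the matching stretches of mtDNA, which hold transfer RNA genes, were also 376 and 140 bases. On chromosome 4, Gm11407, Gm11408 and Gm11410 lay in the order and relative strand of mt-Nd5, mt-Nd6 and mt-Cytb, with gaps of 7 and 74 bases in both genomes. In mt-Nd6 and in its copy Gm11408, the strand was opposite to that of both neighbours.

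Where 2 features resembled the same mtDNA gene, they shared some of their differences from it. Gm11512 and Gm13340 both overlap 654 bases of mt-Co1, in which Gm11512 had 61 substitutions, Gm13340 had 18, and 8 were the same in both (13.1% and 44.4% of each). AC154271.1 and Gm11407 overlap 474 bases of mt-Nd5, with 23 and 38 substitutions, of which 19 were shared (82.6% and 50%). The window below, from the 3′ part of mt-Co1, has 16 differences between Gm11512 and mt-Co1, in capitals in the first 2 lines, and 2 between Gm13340 and mt-Co1, in capitals in the third. These 2 were G1458A and T1464C, counted from the first base of mt-Co1 with the mt-Co1 base first, and Gm11512 has both of them.
Gm11512 chr11:90538553-90538652 (minus strand): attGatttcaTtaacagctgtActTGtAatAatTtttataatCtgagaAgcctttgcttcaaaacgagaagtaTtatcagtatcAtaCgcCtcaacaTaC
mt-Co1 chrM:6701-6800 (plus strand): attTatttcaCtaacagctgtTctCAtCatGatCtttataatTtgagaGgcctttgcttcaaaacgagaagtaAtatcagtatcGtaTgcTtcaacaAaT
Gm13340 chr2:22588175-22588274 (minus strand): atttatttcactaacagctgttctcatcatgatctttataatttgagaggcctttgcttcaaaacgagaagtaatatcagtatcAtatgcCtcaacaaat

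The share of all counts that fell on the 9 features differed widely between the libraries. The wild-type share was 53.2% (53.1 to 53.4), the ob share 28.7% (28.6 to 28.8), the NASH share 75.5% (75.4 to 75.6) and the db share 26.3% (26.2 to 26.4). NASH was highest, wild-type came next, and ob and db were lowest, with no overlap of counting intervals. In bulk RNA of this kind, more of these transcripts and less of all other RNA cannot be told apart, nor can fewer cells of a type and less RNA per cell. Library totals were 627890, 1000306, 529815 and 1005915 counts, so the rest of the table had 293612, 713285, 129834 and 741471 counts. The 3 features of the chromosome 2 block alone held 37.8%, 20.7%, 51.8% and 18.6% of all counts, and the 3 of the chromosome 4 block held 0.101%, 0.0478%, 0.0857% and 0.0310%. Of the set's own counts, the 4 most abundant features took 99.4%, 99.4%, 99.6% and 99.5%.

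**Figure D2:**
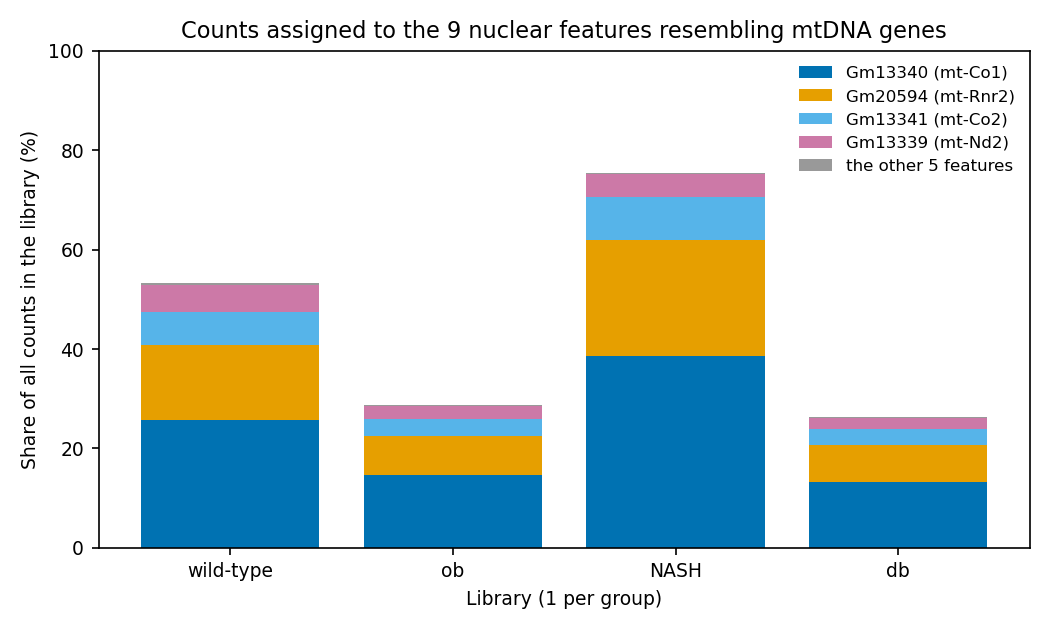
Share of all counts in each library (y axis, percent) assigned to the 9 features, stacked by feature, 1 library per group on the x axis. The NASH bar is the tallest at 75.5%, followed by wild-type at 53.2%, ob at 28.7% and db at 26.3%, and the other 5 features together are too thin to see.

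Gm13340, the copy of mt-Co1, had more counts than any other feature analysed in each of the 4 libraries. Its counts were 161934, 147019, 204293 and 132559, which is 25.8%, 14.7%, 38.6% and 13.2% of each library. Gm20594, the copy of part of mt-Rnr2, had 94874, 78265, 123804 and 76299 counts and ranked 2nd, 4th, 2nd and 3rd. It was counted at this level although ribosomal RNA had been depleted, and which RNAs the depletion reached was not measured here. Gm13341, the copy of mt-Co2, had 41667, 34493, 45672 and 30666 counts. Gm13339, the copy of the end of mt-Nd2, had 33810, 25588, 24644 and 23567 counts. Raw counts of Gm13340, Gm20594 and Gm13341 were thus highest in NASH and lowest in db, whereas those of Gm13339 were highest in wild-type. The NASH library, with the most counts of the first 3, had the smallest total.

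The other 5 features had between 2 and 979 counts. AC154271.1, a copy of mt-Nd5, had 979, 812, 788 and 641 counts, and Gm11407, the other copy of mt-Nd5, had 511, 382, 344 and 229. By raw counts both were highest in wild-type and lowest in db. Gm11512, the short copy of mt-Co1, had 377, 366, 326 and 400. Gm11410, the copy of mt-Cytb, had 118, 94, 99 and 80. Gm11408, the copy of mt-Nd6, had 8, 2, 11 and 3. By raw counts, from libraries of unlike totals, Gm11410 was highest in wild-type and Gm11512 in db, while the counts of Gm11408 were too few to order the libraries. These orders did not hold by share of all counts. Gm11512 stood at 0.0600%, 0.0366%, 0.0615% and 0.0398%, and Gm11410 at 0.0188% in wild-type (0.0156 to 0.0225) and 0.0187% in NASH (0.0152 to 0.0227). All 9 features passed the filter of at least 10 counts in at least 1 library, Gm11408 through NASH alone.

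Per kilobase of the annotated feature the order changed. Counts are scaled here to CPM (counts per 1000000 after trimmed-mean, TMM, scaling of the libraries). Gm20594 stood at 658331, 155628, 759944 and 216255 CPM per kilobase, above Gm13340 at 242914, 63199, 271093 and 81222. Gm13339 and Gm13341 followed, and their order differed between libraries. Per kilobase Gm13339 had 1.07 times the level of Gm13341 in wild-type (1.05 to 1.08) and 0.977 times its level in ob (0.962 to 0.993). In NASH it had 0.711 times that level (0.70 to 0.722), and in db 1.01 times (0.996 to 1.03), where the interval included equality. AC154271.1 came next at 4397 CPM per kilobase in wild-type and 3131 in NASH. Gm11512, at 1318 and 1008, and Gm11407, at 1119 and 667, lay below it. Gm11410 stood at 239 and 178, and Gm11408 last at 35.7 and 43.5 CPM per kilobase.

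**Figure D3:**
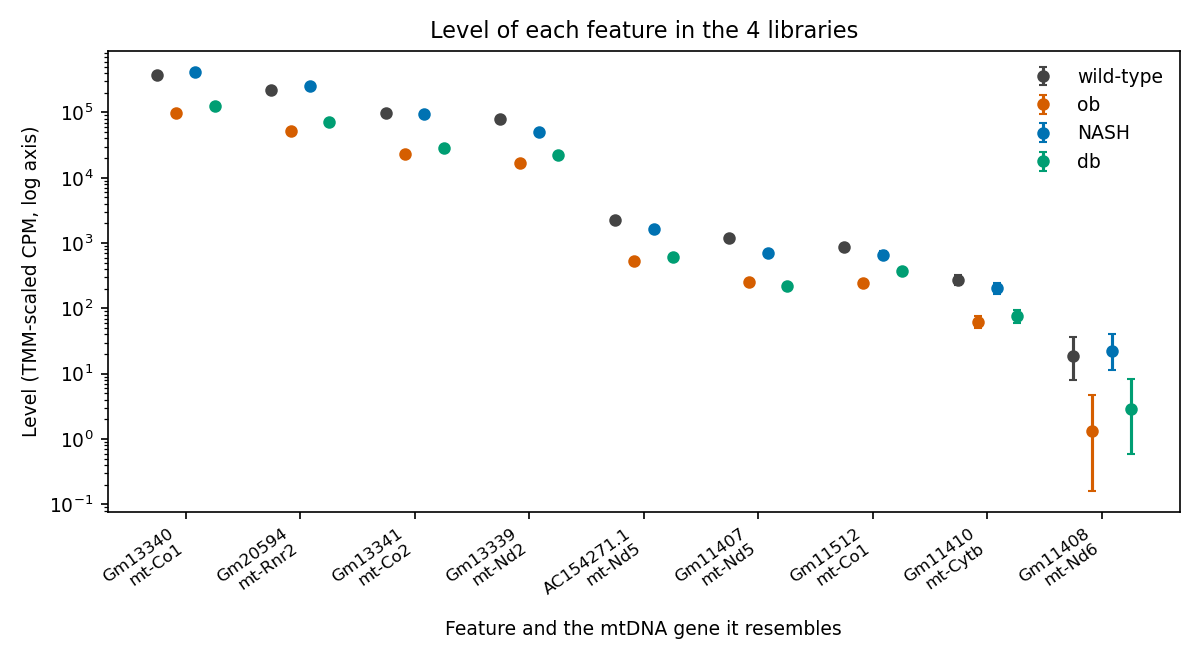
Level of each feature (y axis, TMM-scaled CPM on a log axis) in the 4 libraries, with 95% counting intervals, which are smaller than the points for the abundant features. With this scaling the ob point is the lowest for each feature except Gm11407, and for Gm11407 the db point is, though the interval of the db to ob ratio includes 1 for Gm11407, Gm11410 and Gm11408. By share of all counts the order of ob and db turns for Gm13340, Gm20594, Gm13341, Gm13339 and AC154271.1, with db at 0.897, 0.969, 0.884, 0.916 and 0.785 times ob. It also turns for Gm11410, with an interval that includes 1, and does not turn for Gm11407, Gm11512 and Gm11408.

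TMM-scaled levels of the features were lower in the ob and db libraries than in wild-type. In NASH they ran from 1.68-fold lower than wild-type (Gm11407) to 1.22-fold higher (Gm11408, from 11 and 8 counts). Gm13340 stood at 375302, 97643, 418839 and 125488 CPM. That is 3.84-fold lower than wild-type in ob (3.82 to 3.87), 1.12-fold higher in NASH (1.11 to 1.12) and 2.99-fold lower in db (2.97 to 3.01). Gm20594 stood at 219882, 51980, 253821 and 72229 CPM and was 4.23-fold lower in ob (4.19 to 4.27), 1.15-fold higher in NASH (1.14 to 1.16) and 3.04-fold lower in db (3.02 to 3.07). Both thus lay above wild-type in NASH. Gm13341 stood at 96569, 22909, 93636 and 29030 CPM and was 4.22-fold lower in ob (4.16 to 4.28) and 3.33-fold lower in db (3.28 to 3.38), and 1.03-fold lower in NASH (1.02 to 1.05), a direction that turned with library totals, by which Gm13341 was 1.30-fold higher (1.28 to 1.32). Gm13339, at 78359, 16994, 50525 and 22310 CPM, stood apart in NASH, where it was 1.55-fold lower (1.53 to 1.58), with 4.61-fold in ob (4.54 to 4.69) and 3.51-fold in db (3.45 to 3.57). With TMM scaling the NASH levels of these 4 features thus lay on both sides of wild-type.

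The less abundant features were also lower in ob and db than in wild-type, with wider intervals. With TMM scaling both copies of mt-Nd5 were lower than wild-type in each model. In NASH this rested on the scaling, since by share the ratio of AC154271.1 to wild-type was 0.954 (0.867 to 1.05), and with totals that leave out the 9 features the log2 fold change was 0.86 for AC154271.1 and 0.61 for Gm11407. AC154271.1 was 4.21-fold lower in ob (3.83 to 4.62), 1.4-fold lower in NASH (1.28 to 1.54) and 3.74-fold lower in db (3.38 to 4.14). Gm11407 was 4.67-fold lower in ob (4.08 to 5.34), 1.68-fold lower in NASH (1.46 to 1.93) and 5.46-fold lower in db (4.67 to 6.41). It had the widest separation from wild-type in db among the 8 features with more than 10 counts there. Gm11512 had the smallest, at 2.31-fold lower in db (2.0 to 2.66), 3.59-fold in ob (3.10 to 4.16) and 1.31-fold in NASH (1.12 to 1.52). Gm11410 was 4.38-fold lower in ob (3.31 to 5.81), 1.35-fold in NASH (1.02 to 1.78) and 3.61-fold in db (2.70 to 4.86). In NASH the values of Gm11512 and Gm11410 rested on the scaling too. By share their ratios to wild-type were 1.02 (0.881 to 1.19) and 0.994 (0.753 to 1.31), and with totals that leave out the 9 features their log2 fold changes were 0.97 and 0.92. For Gm11408, with 2 counts in ob and 3 in db, the level was 14.0-fold lower in ob (2.79 to 135) and 6.53-fold lower in db (1.57 to 38.2), and the ratio of NASH to wild-type was 1.22 (0.446 to 3.48).

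As a set, the 9 features had a median log2 fold change (a difference of log2(CPM + 1)) of -2.08 for ob, -0.39 for NASH and -1.81 for db, each against wild-type. Over all 5347 features past the filter the median was 0.41, -0.14 and 0.11, and the set's median minus this one was -2.49, -0.24 and -1.92 on the log2 scale. In ob 9 of 9 features were at least 2-fold lower, where 15.5% of all tested features were, and 0 of 9 at least 2-fold higher, where 34.5% were. In db 9 of 9 were at least 2-fold lower, where 21.5% of all tested features were, and 0 of 9 higher, where 28.8% were. In NASH 0 of 9 were at least 2-fold lower, where 31.8% of all tested features were, and 0 of 9 were at least 2-fold higher, where 20.3% were. The features were chosen with these levels known and 6 of them lie in 2 blocks, so nothing is read from these counts. The 3 comparisons share the wild-type library.

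The size of these differences rested on the scaling. As plain shares of the library total, 9 of 9 features were lower than wild-type in ob and in db, with a median log2 fold change of -0.95 and -1.20 and 3 and 6 features at least 2-fold lower. In NASH 5 features had a higher share than wild-type and 4 a lower one, and Gm13340 was 1.5-fold higher by share (1.49 to 1.5). The NASH median changed sign between scalings, from -0.39 with TMM to 0.035 with library totals and 0.97 with totals that leave the 9 features out. In the last case all 9 features lay above wild-type, from 0.61 to 1.60 on the log2 scale, and 4 were at least 2-fold higher. In NASH Gm13341 had a log2 fold change of -0.04 with TMM, 0.22 with DESeq2 size factors, 0.18 with the submitters' values, 0.16 without the filter and 0.37 with TMM factors that leave out the ob library. The ob library decided the sign too, since TMM factors computed without it gave a NASH median of 0.033. The scalings also moved the median of all tested features, from 0.41 with TMM to 1.41 with library totals in ob, from -0.14 to 0.98 in NASH with totals that leave the 9 out, and from 0.11 to 0.62 with library totals in db. The distance of the set's median to the median of all tested features moved less over the settings that kept the filter. It ran from -2.52 to -2.36 for ob, -0.24 to -0.015 for NASH and -2.01 to -1.82 for db. This follows largely from the calculation, because a change of scaling shifts all features by nearly the same amount. Without the filter, where the features compared change, the distance was -1.60 for ob, -0.18 for NASH and -1.15 for db.

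**Figure D4:**
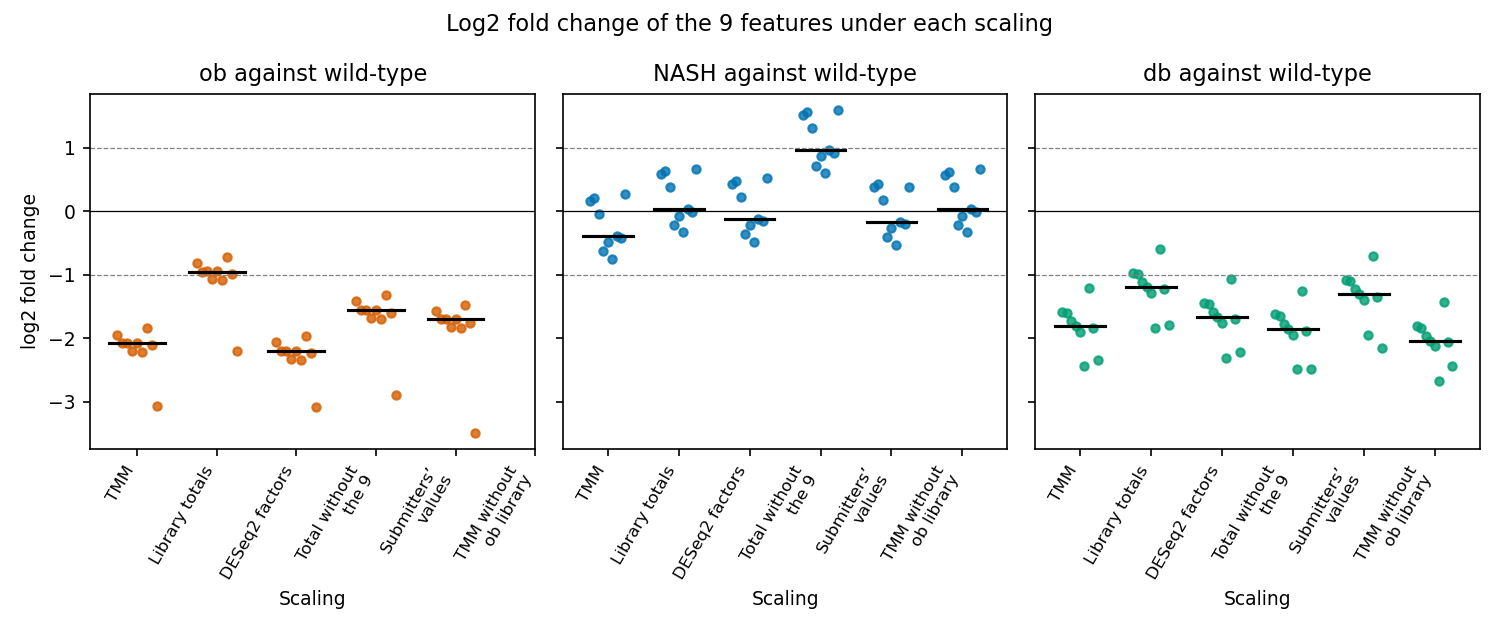
Log2 fold change of each of the 9 features against wild-type (y axis, 1 point per feature, black line at the median) under each scaling (x axis), with dashed lines at 2-fold. All points lie below 0 in ob and db, and in NASH the median moves from -0.39 to 0.97.

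Ratios between the features of 1 library do not depend on the scaling, and they differed between libraries too. Counts of Gm13340 per count of Gm20594 were 1.71 for wild-type (1.69 to 1.72), 1.88 for ob (1.86 to 1.89), 1.65 for NASH (1.64 to 1.66) and 1.74 for db (1.72 to 1.75). The ratio of the mt-Co1 copy to the mt-Rnr2 copy thus ran from 1.65 to 1.88 while their summed share varied more widely.

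Gm13339 moved most among the abundant features. Counts of Gm13339 per count of Gm13340 were 0.209 for wild-type (0.206 to 0.211), 0.174 for ob (0.172 to 0.176), 0.121 for NASH (0.119 to 0.122) and 0.178 for db (0.175 to 0.180). The NASH ratio was 1.73-fold lower than that of wild-type (1.70 to 1.76), and the ob and db ratios 1.20-fold (1.18 to 1.22) and 1.17-fold lower (1.15 to 1.20). Gm13341, on the other side of Gm13340 in the same block, had 0.257, 0.235, 0.224 and 0.231 counts per count of Gm13340, at most 1.15-fold lower (1.13 to 1.17, in NASH). In NASH Gm13339 was therefore lower against both of its neighbours on chromosome 2, and it took 6.16% of the set's counts there against 10.1%, 8.92% and 8.91% in the libraries of wild-type, ob and db.

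The rarer features, leaving out Gm11408, were lower relative to Gm13340 in NASH as well. AC154271.1 was 1.57-fold lower relative to Gm13340 in NASH than in wild-type (1.43 to 1.72), Gm11407 1.87-fold (1.63 to 2.15), Gm11512 1.46-fold (1.26 to 1.69) and Gm11410 1.5-fold (1.15 to 1.96). In db the rarer features differed from each other. Gm11407 was 1.83-fold lower relative to Gm13340 (1.56 to 2.14) and AC154271.1 1.25-fold lower (1.13 to 1.38), while Gm11512 was 1.30-fold higher (1.13 to 1.49). Between both copies of mt-Nd5, the counts of Gm11407 per count of AC154271.1 were 0.522 for wild-type (0.468 to 0.581), 0.470 for ob (0.415 to 0.532), 0.437 for NASH (0.383 to 0.496) and 0.357 for db (0.306 to 0.416). Between both copies of mt-Co1, the counts of Gm11512 per 100 of Gm13340 were 0.233 for wild-type (0.210 to 0.258), 0.249 for ob (0.224 to 0.276), 0.160 for NASH (0.143 to 0.178) and 0.302 for db (0.273 to 0.333). Copies of the same mtDNA gene thus had ratios that differed between some libraries beyond counting error. Each pair shares stretches with its partner (38 windows of 50 bases in the mt-Co1 pair and 26 in the mt-Nd5 pair), and the sources used here do not give how reads with several places were counted.

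**Figure D5:**
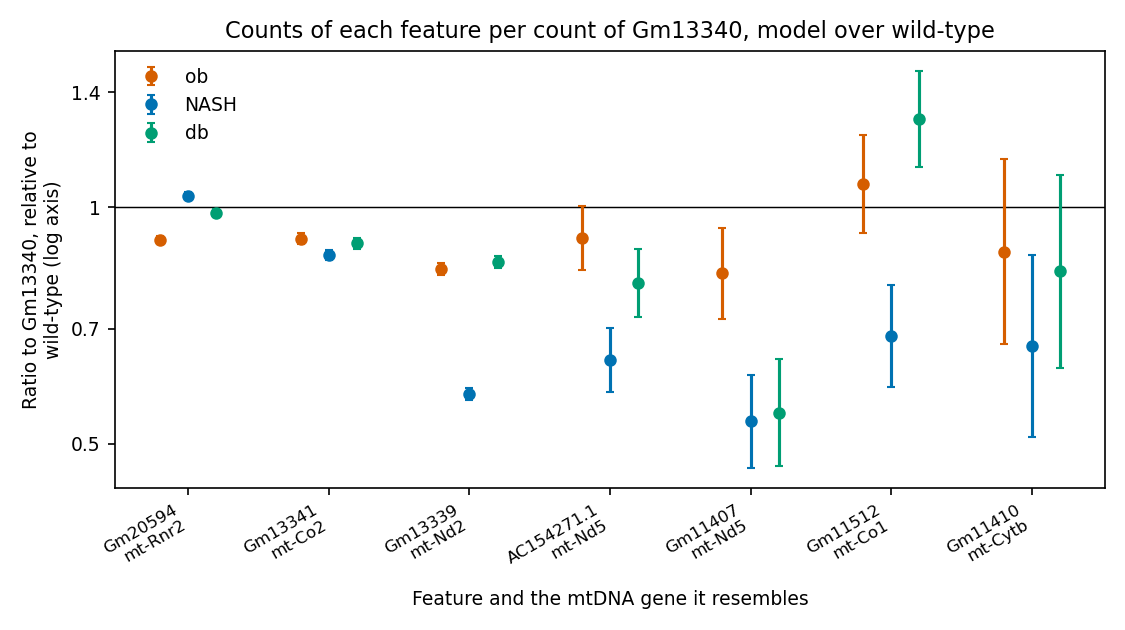
Counts of each feature per count of Gm13340 in ob, NASH and db, divided by the same ratio in wild-type (y axis, log axis, 95% counting intervals), for the 7 other features with more than 50 counts in each library. Gm20594 and Gm13341 lie near 1, Gm13339 lies at 1.73-fold lower in NASH, and Gm11512 lies above 1 in db.

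Of 987 features outside the set with at least 50 counts in a library, the 5 nearest to the set's mean profile over the 4 libraries, by Euclidean distance of centred log2(CPM + 1), were Hspa8, Rpl3, Rplp0, Eef1a1 and Ubb. Their distances ran from 0.41 to 0.55, and those of the 9 features to their own mean from 0.13 to 1.05. Hspa8, which encodes a cytosolic chaperone, had 63, 67, 82 and 60 counts, and Eef1a1, which encodes the translation elongation factor that brings transfer RNA to the ribosome, had 258, 307, 379 and 269. Rpl3 and Rplp0 encode cytosolic ribosomal proteins and Ubb encodes ubiquitin. The likeness rests on 4 libraries and is a description.

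Nuclear genes for the other subunits of the same enzymes are given next, with TMM scaling. They are to be read against all tested features, of which 34.5%, 20.3% and 28.8% were at least 2-fold above wild-type in ob, NASH and db, and 15.5%, 31.8% and 21.5% as far below it. Nuclear subunits of complex I had 17 of 36 members past the filter, with 3 higher and 3 lower at 2-fold in ob, 1 higher and 4 lower in NASH, and 5 higher and 3 lower in db (medians -0.49, -0.52 and 0.64). Of 9 complex III genes 0 were higher and 6 lower in ob, 0 and 3 in NASH, and 2 and 1 in db (medians -1.14, -0.15 and -0.03). The position of complex III in ob rested on the scaling, since these genes together took 0.0118% of all counts in wild-type and 0.0108% in ob. Of 10 tested complex IV genes 0 were higher and 2 lower in ob, 2 and 1 in NASH, and 4 and 1 in db (medians -0.34, 0.36 and 0.48). Cox4i1, the complex IV subunit gene with the most counts, had 19, 39, 18 and 76 counts, so each of these genes is at low depth. Genes for transcription, replication and RNA processing of mtDNA had 6 of 22 members past the filter, of which 4 were higher in ob and 0 lower, 0 and 2 in NASH, and 1 and 1 in db (medians 1.32, -0.06 and 0.70). The 22 genes together had 33, 153, 47 and 89 counts, so the filter of 10 counts favours genes that are high in ob. Nothing is read from the number higher there. Lrpprc, which encodes an mRNA-stabilising protein of mitochondria, had 3, 39, 7 and 11 counts.

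RNA of other sources differed between the libraries as well. Below, numbers of genes higher or lower are at 2-fold with TMM scaling. The 11 hepatocyte markers in the table all had counts in each library, and they took 3.98%, 5.97%, 0.575% and 13.3% of all counts, with 9 of 11 at least 2-fold lower in NASH, where 31.8% of all tested features were, and 0 higher. The 5 long non-coding RNAs of the nuclear list took 0.0166%, 1.43%, 0.0170% and 0.0386%. Neat1, at 7, 7450, 5 and 109 counts, and Malat1, at 75, 6797, 77 and 260, held most of the 14332 ob counts. Meg3 went the other way in ob, with a log2 fold change of -1.80 (20, 19, 5 and 15 counts). In ob 4 of 5 were higher and 1 lower, where 34.5% and 15.5% of all tested features were. In db 2 were higher and 2 lower, where 28.8% and 21.5% were. Macrophage markers took 0.0199%, 0.0544%, 0.113% and 0.0529%, with 7 of 9 at least 2-fold higher in NASH, where 20.3% of all tested features were, and 0 lower. Stellate and fibrosis markers took 0.0153%, 0.0322%, 0.0506% and 0.0271%, with 3 of 4 tested markers higher in NASH, against the same 20.3%. Endothelial markers took 0.00637%, 0.0207%, 0.00661% and 0.0174%. Erythroid genes took 0.00541%, 0.148%, 0.00151% and 0.00249%, with 3 of 3 higher in ob, where 34.5% of all tested features were. In NASH 3 of 3 were lower and in db 2, where 31.8% and 21.5% of all tested features were. Alas2, at 1, 43, 0 and 3 counts, passed the filter through ob alone, which favours a higher level there. Cytosolic ribosomal protein and elongation factor genes took 0.0984%, 0.0784%, 0.173% and 0.0764%, with 8 of 10 at least 2-fold lower in ob, 0 in NASH and 4 in db, where 15.5%, 31.8% and 21.5% of all tested features were. Their distance in ob rested on the scaling. Their summed level was 1432 CPM in wild-type and 521 in ob, while their shares were 0.0984% and 0.0784%. The part of these other sources in the levels of the 9 features was not tested. The purity of the mitochondria, the amount of RNA and the group cannot be told apart with 1 library each.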

How the data were processed

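Total RNA of liver mitochondria from 4 libraries, 1 per group, was used. Ribosomal RNA was depleted and strand-keeping libraries were prepared (NEBNext Ultra Directional) from miRNeasy extracts, per the labels' protocols. The submitters' processing notes name Bowtie2 2.3.2, TopHat2 2.1.1, Trimmomatic 0.32, bcl2fastq 2.20 and the mm10 build. Part of the db genotype label is not reported here. The sources used here do not give the counting program, its annotation or its strand setting. The deposited table held expected counts, some with fractions. Of the 36 values of the 9 features, 6 lay within 0.01 of a whole number. Of all values above 0, 89.5%, 53.7%, 89.3% and 85.3% did (wild-type, ob, NASH, db). Per the file headers the table also held TMM-normalized values, which by their values are on a log2 scale and served as an alternative only.

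Expected counts were rounded, 5347 features reaching 10 counts in 1 library or more were tested, and TMM factors came from edgeR 4.0.16 in R 4.3.3 (0.687, 1.51, 0.921 and 1.05 for wild-type, ob, NASH, db). The scaling step was run on simulated counts with as many features raised as lowered. These libraries are not balanced in that way, so the simulation does not show that the factors are right here. Fold changes of single features are ratios of scaled counts with exact binomial 95% intervals, shares have exact Clopper-Pearson intervals, and changes of a ratio have log-scale normal (Woolf) intervals. Intervals cover counting error only, since they come from the read counts of 1 library per group. Without molecular identifiers several reads can stem from 1 molecule, so the intervals can be too narrow even for counting error. Size factors from DESeq2 1.42.0 were an alternative. No test was run, since 1 library per group allows none. Sequences were GENCODE M21 transcripts, cut to the span of the deposited table where that was shorter (Gm20594 and AC154271.1), and aligned with blastn 2.17.0 (e-value at most 1e-10, word size 11). The rest used scipy 1.17.1, pandas 2.3.3 and numpy 2.4.6 in Python 3.11.15.

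The 9 features and the gene lists were chosen with earlier results of these data known. The text names all 9, the nearest 5 features by profile and up to 3 members per list with the most counts, and Gm12155 was named after its values were seen. The planned search of the genome was done on transcripts, since no genome was used here. Of the 12 hepatocyte, 10 macrophage, 8 stellate and fibrosis, 5 endothelial, 5 erythroid, 6 nuclear, 10 cytosolic and 27 mtDNA expression genes listed, 11, 9, 8, 5, 3, 5, 10 and 22 were in the table.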

Additional observations from a re-analysis of the deposited data

Results flagged for a closer look

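The share of all counts in the 9 features moved in opposite directions among the models. Against the 53.2% of wild-type it was 22.3 percentage points higher in NASH, and it dropped by 24.5 points in ob and dropped by 26.9 points in db. The models share 1 wild-type library and have 1 library each, so this difference was not tested.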

How the results depend on the processing

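For ob and db the median log2 fold change of the 9 features stayed below 0 under every alternative run, and the number at least 2-fold lower in NASH stayed at 0. The size moved with the scaling. With plain library totals the ob median was -0.95 (3 features at least 2-fold lower), that of NASH 0.035 and that of db -1.20 (6 features). With DESeq2 size factors the medians were -2.21, -0.12 and -1.67, with totals that leave out the 9 features -1.56, 0.97 and -1.86, and with the submitters' values -1.71, -0.16 and -1.31 (in db 8 features at least 2-fold lower). Without the filter they were -1.60 in ob and -1.15 in db (6 features), and with counts not rounded -1.84 in db. TMM factors without the ob library, an alternative chosen after seeing the data, gave 0.033 in NASH and -2.04 in db. Of all tested features, 830 were at least 2-fold lower and 1846 higher in ob with TMM, against 249 and 3295 with library totals, 518 and 2515 with totals that leave out the 9, and 638 and 2405 with the submitters' values. In NASH 1700 and 1088 became 1381 and 1458 with library totals, 866 and 2613 with totals that leave out the 9, and 1397 and 1462 with TMM factors without the ob library. In db 1147 and 1541 became 631 and 2097 with library totals and 743 and 2076 with the submitters' values. Without the filter, where 37819 features were tested, the numbers were 2685 and 4963, 3995 and 3803, and 2952 and 5187 for ob, NASH and db. The cause was not tested. A pseudocount of 0.1 CPM moved none of the 6 results it was run on beyond counting error. Shares within the features past the filter were 54.3%, 29.5%, 77.3% and 26.7% (wild-type, ob, NASH, db). The ratio of Gm13340 to Gm20594 per kilobase was 0.369, 0.406, 0.357 and 0.376, which by construction divides by feature length. Gm11408, with 2 to 11 counts, is the value most limited by depth. No replicate could be left out with 1 library per group. No paired analysis was possible because each group has 1 library.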
